A study of Homo sapiens with 11 samples.

Results

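The angiopoietins, the angiopoietin-like protein ANGPTL4 and the vascular endothelial growth factor (VEGF) family are secreted ligands that act on blood vessels. Expression of 7 of their genes, ANGPT1, ANGPT2, ANGPTL4, VEGFA, VEGFB, VEGFC and PGF, was followed in HCT116 cells that overexpress gelsolin. All probes whose platform gene symbol is 1 of these names were taken, which gave 7 probes, 1 for each gene, of 20596 probes and 16505 named genes on the array. ANGPT2 was chosen by its measured fall, on median-scaled log2 signals, in the 4 gelsolin lines against the 2 vector lines. Its fold change is therefore a description and carries no test. The remaining genes belong to the same ligand families.

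ANGPT1 activates the endothelial receptor TIE2, the product of TEK, and steadies the vessel wall, whereas ANGPT2 is in most settings a context-dependent antagonist of ANGPT1 that loosens it. VEGFA drives endothelial growth and permeability through the receptors encoded by FLT1 and KDR, VEGFB and the placental growth factor PGF bind the FLT1 receptor, and VEGFC acts mainly on lymphatic vessels through FLT4. Carcinoma cells secrete VEGFA, and VEGFA and ANGPTL4 are classical genes of the response to low oxygen. ANGPTL4 is also a target of PPAR nuclear receptors and inhibits lipoprotein lipase.

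HCT116 is a human colorectal carcinoma cell line, and gelsolin, encoded by GSN, severs and caps actin filaments. Lines C1, C2, C3 and C8 carry the gelsolin cDNA in the plasmid pIRES2-EGFP after stable transfection, and lines V4 and V5 carry the same plasmid without gelsolin. All 6 lines therefore share the plasmid, its EGFP and selection with Geneticin, and each is called a clone in the study's results. Of the 11 arrays, 8 come from the gelsolin lines and 3 from the vector lines, with 2 harvests of each line other than V5, for which 1 array was analysed. The labels give replicate numbers 1 and 2, which are called first and second harvest here, with no order in time stated. The V5 array is labelled replicate 1. Beadchip 1 carries the first harvests, and beadchip 2 the second harvests together with the V5 array. Beadchip and harvest therefore cannot be told apart except through V5.

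Signals are average bead intensities deposited without normalization, and how their background was treated is not stated. They were divided by each array's median and multiplied by the common median of 88.35, and are called scaled signals here. Array medians were between 80.1 and 105 in gelsolin lines and between 75.7 and 88.7 in vector lines. By its brighter probe GSN gave 187 to 271 on the gelsolin arrays and 140.2 to 141 on the vector arrays, in the direction of the labels. Its other probe was dim and level, at 78.6 in gelsolin lines and 78.4 in vector lines, so the check of the labels rests on 1 probe. Of 11 colon epithelial markers, 7 were above the common median on every array, among them EPCAM, KRT8, KRT18 and CDX2, whereas CDX1, VIL1 and CDH17 were above it on no array. The keratin KRT19 and the claudin CLDN4 were higher in the gelsolin lines (log2 fold changes of 1.00, adjusted p = 0.000628, and 0.42, adjusted p = 0.0342, both from limma), and CLDN4 lost the call in 11 of 21 alternatives. Of 14 endothelial markers, 12 were above it on no array, and their summed signal was 926 to 998 on gelsolin arrays and 947 to 963 on vector arrays. Of the 2 that passed the filter on low signals, VWF did so only through the gelsolin lines, where it was higher. It gave 98.9 to 154 on gelsolin arrays and 70.4 to 80.6 on vector arrays. Its log2 fold change of 0.70 is therefore given with no test. Of 10 fibroblast and leukocyte markers, 9 were above the common median on no array, with sums of 588 to 677 on gelsolin arrays and 660 to 745 on vector arrays, and COL1A1 was lower (log2 fold change −0.56, adjusted p = 0.00314 from limma). COL1A1 lost the call within beadchip 1 (−0.048), without V5 and when no spread was shared between genes.

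VEGFA and ANGPTL4 are members of the hypoxia response, and hypoxia response elements can lie in upstream regions. Only the 250 bases before a gene were searched, so elements further away were not looked at. The upstream sequences of ANGPTL4 and VEGFB, which passed the filter on low signals, are shown. Each is the 250 bases before the gene start in GRCh38.p14, 5′ to 3′ on the plus strand, with every match of the hypoxia response core (ACGTG or GCGTG, on either strand) in capitals. The ANGPTL4 window is chr19:8363905-8364154 and the VEGFB window chr11:64234334-64234583.
ANGPTL4: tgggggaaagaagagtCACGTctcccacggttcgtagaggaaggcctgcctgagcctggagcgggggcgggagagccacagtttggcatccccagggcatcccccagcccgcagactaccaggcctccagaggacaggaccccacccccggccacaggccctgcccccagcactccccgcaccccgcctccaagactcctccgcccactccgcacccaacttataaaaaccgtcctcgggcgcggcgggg
VEGFB: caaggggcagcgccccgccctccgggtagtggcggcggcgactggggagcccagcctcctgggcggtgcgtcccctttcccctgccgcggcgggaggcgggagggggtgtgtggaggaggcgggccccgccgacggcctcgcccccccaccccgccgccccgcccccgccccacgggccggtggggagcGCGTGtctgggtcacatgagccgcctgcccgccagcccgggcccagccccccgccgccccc
The ANGPTL4 window held 1 core, which starts 234 bases before the gene start and reads ACGTG on the opposite strand, and the VEGFB window held 1, which starts 61 bases before it. VEGFC held 1 core, and of the 2 windows listed for PGF 1 held a core. Of 35116 promoter windows of this length 43.2% held at least 1 core, so a match is common. The E-box CACGTG, which contains the core ACGTG, was found in none of the windows of ANGPTL4, VEGFB, VEGFC and PGF and in 6.34% of all windows. The GC box GGGCGG occurred 2 times in the ANGPTL4 window and 6 times in the VEGFB window, both strands counted, and in 42.6% of all windows. VEGFA, ANGPT1 and ANGPT2 are named only. A match describes these letters and is not a site that was tested.

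ANGPT2, which was picked for its fall, was the member with the widest separation between the groups. Line C1 gave a scaled signal of 70.5 at its first and 82.0 at its second harvest, line C2 65.0 and 64.5, line C3 98.8 and 67.1, and line C8 58.7 and 94.0. Of the vector lines, V4 showed 585 and 330.3 at its harvests and V5 showed 495. No gelsolin array reached the lowest vector array, and the gelsolin signals lay on both sides of the common median. The means of line signals were 74.1 ± 6.93 (SD, n = 4 lines) in gelsolin lines and 467 ± 39.3 (SD, n = 2 lines) in vector lines. The log2 fold change was −2.66, a 6.31-fold lower signal, with the gelsolin mean among the signals of dim probes. ANGPT2 passed the filter on low signals only through the vector lines, where it is high.

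The size of the ANGPT2 difference varied with the background correction, with an added offset and between beadchips. The 9863 probes that did not pass the filter had line means with a median of 59.3 in gelsolin lines and 62.8 in vector lines, and 95% of them were below 78.8 in gelsolin lines and 81.2 in vector lines. The ANGPT2 mean of 74.1 in gelsolin lines lay within this range, and no detection p came with the signals, so whether a transcript was present there was not tested. With normexp background correction without an offset followed by quantile normalization the log2 fold change was −3.85, and with 50 added to every signal it was −2.06. Within beadchip 1, which holds V4 as its only vector array, it was −3.03, and within beadchip 2, which holds V4 and V5, it was −2.41. In RNA of whole cultures, fewer cells that express a gene and less RNA per cell cannot be told apart.

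**Figure D1:**
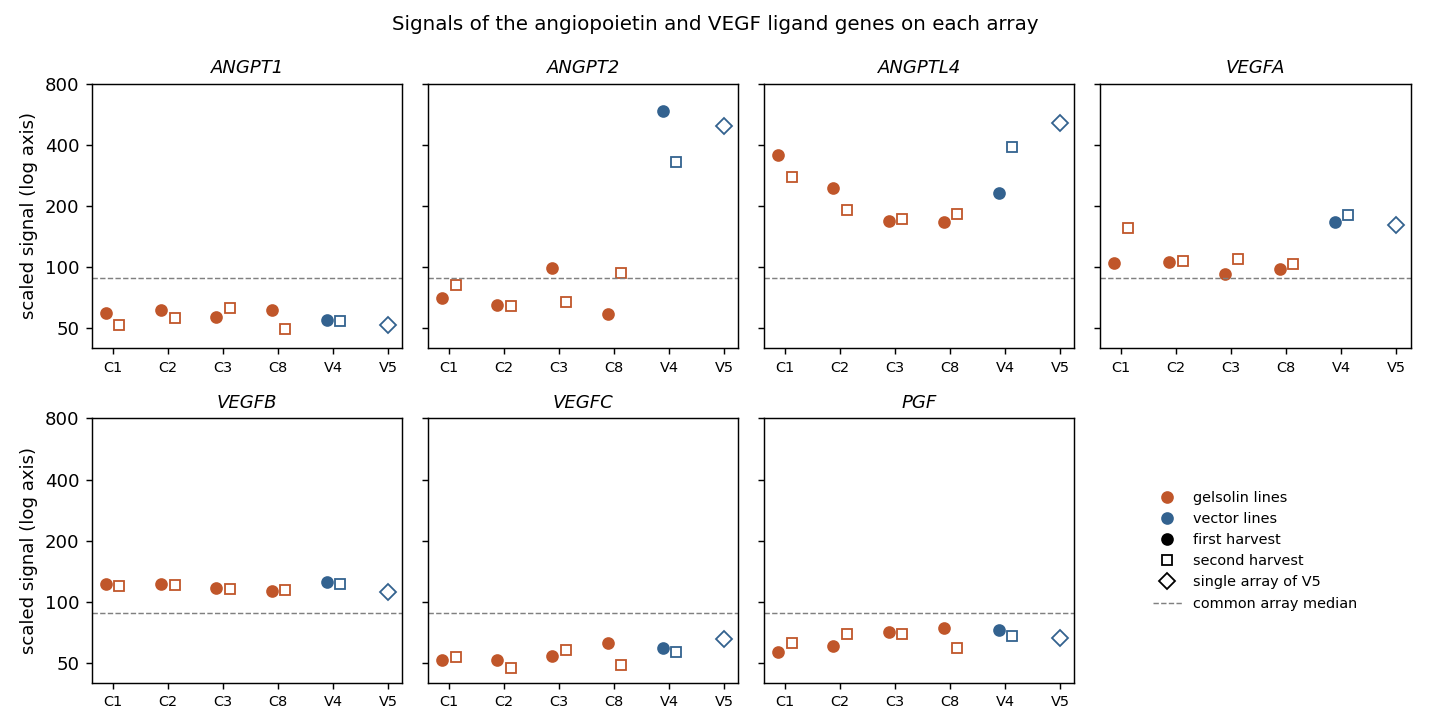
Scaled signal (log axis) of each of the 7 genes on each of the 11 arrays, by line, with first harvests as filled circles, second harvests as open squares, the single V5 array as an open diamond and the common median of 88.35 dashed. ANGPT2 and VEGFA are lower on all 8 gelsolin arrays than on all 3 vector arrays, whereas ANGPTL4 overlaps and VEGFB lies level.

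ANGPT1, the TIE2 agonist, was dim on every array. It gave between 49.4 and 63.1 on the gelsolin arrays and between 52.3 and 55.2 on the vector arrays, and these ranges overlapped. Its log2 fold change was 0.10, and when all probes were tested its adjusted p from limma was 0.288. ANGPT1 did not pass the filter, since fewer than 2 of 6 lines had a mean over the common median, and its signal lay among those of the dim probes.

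VEGFA fell in the gelsolin lines. Line C1 gave 105 at its first and 157 at its second harvest, line C2 106 and 107, line C3 92.4 and 110.1, and line C8 97.7 and 103. The vector arrays gave 166 and 180.0 for V4 and 160.4 for V5. All 8 gelsolin arrays were below all 3 vector arrays, although the second harvest of C1 came within a few units of V5. The line means were 109 ± 13.2 (SD, n = 4 lines) in gelsolin lines and 167 ± 8.80 (SD, n = 2 lines) in vector lines, a log2 fold change of −0.62 (95% interval −0.87 to −0.37, adjusted p = 0.00283 from limma). Without the second harvest of C1 the log2 fold change was −0.69 (adjusted p = 0.000345 from limma), and over all alternatives the adjusted p was between 0.000345 and 0.0730. The call was lost within beadchip 2 (−0.53, adjusted p = 0.0599 from limma) and when no spread was shared between genes (adjusted p = 0.0730), while within beadchip 1 the value was −0.73 (adjusted p = 0.0442 from limma), with 1 vector array that was taken to vary like the gelsolin arrays.

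ANGPTL4 was 219 ± 67.4 (SD, n = 4 lines) in gelsolin lines and 407 ± 151 (SD, n = 2 lines) in vector lines, and this difference did not pass the threshold. Line C1 gave 357 at its first and 278 at its second harvest, line C2 245 and 191, line C3 168 and 172, and line C8 167 and 182. The V4 arrays showed 232 and 388, and the V5 array showed 514. C1 and the first harvest of C2 overlapped the vector arrays, and 5 of 8 gelsolin arrays were below all vector arrays. The log2 fold change was −0.89 (standard error 0.31, 95% interval −1.64 to −0.14, adjusted p = 0.0925 from limma). The value differed by more than 1.5 times or changed its call when single lines or beadchips were taken. Without C1 the log2 fold change was −1.08 (adjusted p = 0.00997 from limma), and without V5 it was −0.50 (adjusted p = 0.424 from limma). Within beadchip 1, where the first harvest of V4 is the only vector array, it was −0.06 (adjusted p = 0.959 from limma), and within beadchip 2, which adds V5, it was −1.14 (adjusted p = 0.00561 from limma). V4 itself gave 232 on beadchip 1 and 388 on beadchip 2, where V5 gave 514. How much V4 and V5 each add to the difference between the beadchips was not tested.

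VEGFB was level. It gave between 113 and 123 on the gelsolin arrays and between 112 and 125 on the vector arrays, with overlapping groups. The line means were 118 ± 3.74 (SD, n = 4 lines) in gelsolin lines and 118 ± 8.40 (SD, n = 2 lines) in vector lines. The 95% interval of the log2 fold change, −0.19 to 0.20 around 0.0047, bounds a difference in either direction (adjusted p = 0.978 from limma).

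VEGFC and PGF were too dim for the filter. VEGFC gave 47.2 to 62.6 on gelsolin arrays and 56.7 to 65.8 on vector arrays, with 6 of 8 gelsolin arrays below all vector arrays. Its log2 fold change was −0.21 (adjusted p = 0.0610 from limma when all probes were tested). PGF gave 56.9 to 74.1 on gelsolin arrays and 66.6 to 72.8 on vector arrays, with a log2 fold change of −0.07 (adjusted p = 0.532 on the same footing). Probes that did not pass the filter had a median log2 fold change of −0.09 on this scale, against 0.02 over the genes tested, and with quantile normalization the median of the dim probes was −0.0052. VEGFC was −0.13 with quantile normalization. The PGF value lay close to the shift of the dim probes.

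Of the 7 genes, 4 passed the filter. Apart from ANGPT2, 1 of 3 tested genes, VEGFA, passed the threshold and was lower. Over all 10267 genes tested, 22.2% passed it in either direction and 9.41% passed it as lower. All 8 gelsolin arrays were below all 3 vector arrays for ANGPT2 and VEGFA, and the same held for 9.23% of genes tested. Since ANGPT2 was picked for its fall, its place in these counts is no evidence, and a count of 1 of 3 is too small to be set apart from the background share.

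**Figure D2:**
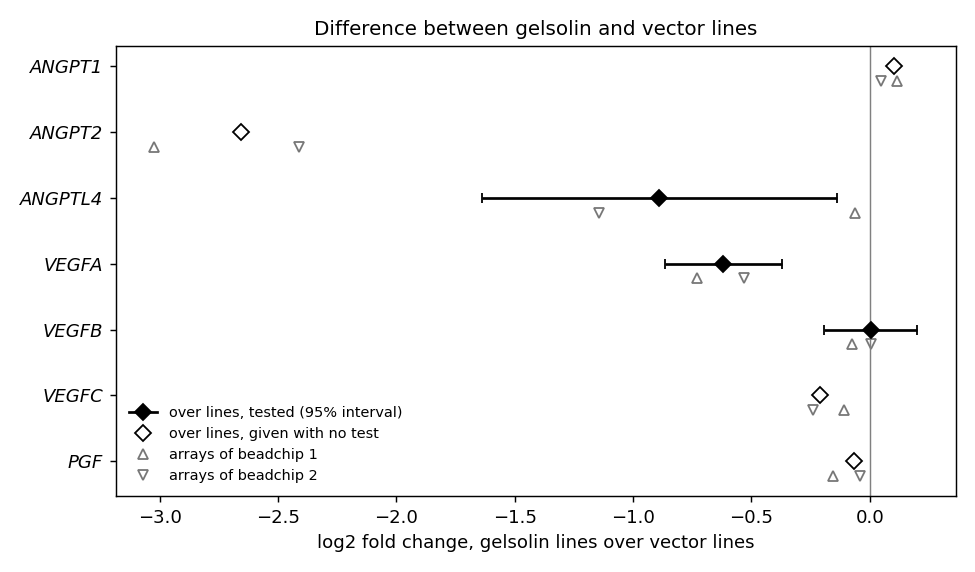
Log2 fold change (horizontal axis, gelsolin over vector lines) of the 7 genes, with diamonds over lines (filled with a 95% interval where tested, open where given with no test) and triangles for the arrays of beadchip 1 (pointing up) and beadchip 2 (pointing down). VEGFA lies near −0.62 on both beadchips, whereas ANGPTL4 differs between −0.06 and −1.14.

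The 4 gelsolin lines were then compared with one another. For ANGPT2 the line means were 76.0 in C1, 64.8 in C2, 81.4 in C3 and 74.3 in C8, and they are given with no test. All 4 lay below the common median of 88.35, and C3 lay above the 78.8 under which 95% of dim probes fell. VEGFA was 128 in C1, 106 in C2, 101 in C3 and 100.5 in C8, a range of 0.35 on the log2 scale (adjusted p = 0.400 from limma's F-test over lines). ANGPTL4 ranged more widely than VEGFA and VEGFB, with 315 in C1, 216 in C2, 170.2 in C3 and 174 in C8. This range of 0.89 on the log2 scale was above that of 97.7% of genes tested but did not pass the threshold (adjusted p = 0.190 from limma). VEGFB ranged over 0.09 (adjusted p = 0.898). None of VEGFA, ANGPTL4 and VEGFB passed this test, which 0.575% of all genes passed. C1 was the highest gelsolin line for both VEGFA and ANGPTL4.

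Second and first harvests of the same lines were also compared. VEGFA was 0.21 higher on the log2 scale in second harvests (standard error 0.09, adjusted p = 0.450 from limma), with a positive difference in 5 of 5 lines and the widest, 0.57, in C1. ANGPT2 in V4, the only line with 2 harvests where it was well above the dim probes, differed by −0.82, which has no test. Its gelsolin signals were between 58.7 and 98.8 over both harvests, on either side of the common median of 88.35. ANGPTL4 differed by 0.04 (adjusted p = 0.937), with 0.74 in V4 against −0.36 in both C1 and C2. VEGFB differed by −0.01 (adjusted p = 0.951). None of VEGFA, ANGPTL4 and VEGFB passed the threshold, and neither did any other gene (0% of genes tested), while 1132 genes had an unadjusted p under 0.05 from limma. Whether the harvest difference itself differed between gelsolin lines and V4 was tested too. For ANGPTL4 the difference of the differences was −0.88 (adjusted p = 0.897 from limma), with V4 as the only vector line, taken to vary like the gelsolin lines.

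**Figure D3:**
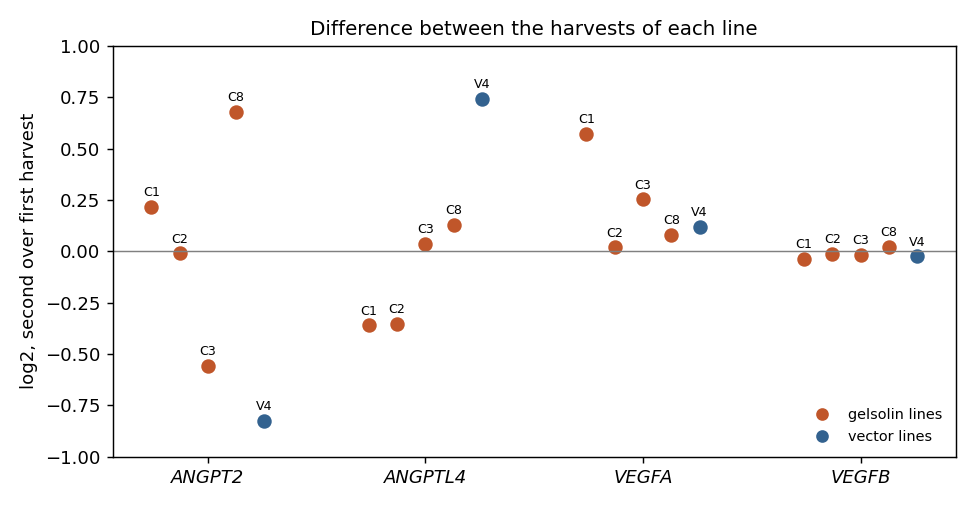
Log2 difference between the second and first harvest (vertical axis) of the 4 genes past the filter in each of the 5 lines with 2 harvests. VEGFA is above 0 in all 5 lines, whereas ANGPT2, dim in the gelsolin lines, and ANGPTL4 spread from −0.82 to 0.74 and VEGFB stays within 0.04 of 0.

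The genes around these ligands were taken from lists of receptors, regulators and related factors. Their counts stand against the 22.2% of all genes tested that passed the threshold and the 9.41% that passed it as lower. Of the angiopoietin and TIE list, 6 genes are on the array and 2 passed the filter. Both are integrin subunits that can bind ANGPT2, and both were lower. ITGB1 averaged 6050.1 ± 323 in gelsolin lines and 10467 ± 312 in vector lines (SD, n = 4 and 2 lines), and differed by −0.79 on the log2 scale (adjusted p = 0.000267 from limma). A further ITGB1 probe past the filter gave −0.69. ITGA5 differed by −0.42 (adjusted p = 0.0444), a call lost in 9 of 22 alternatives. TEK and TIE1, which encode the receptors, were dim, with line means of 64.9 and 68.2 in gelsolin lines and 69.5 and 77.7 in vector lines.

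Of 7 VEGF receptors and co-receptors, 2 passed the filter. NRP1, the co-receptor neuropilin 1 that binds VEGFA, was lower, at 93.2 ± 18.8 in gelsolin lines and 437 ± 96.5 in vector lines (SD, n = 4 and 2 lines). It differed by −2.23 on the log2 scale (adjusted p = 0.000130 from limma), while its other probe, dimmer, gave −0.50. The arrays ran from 68.5 to 182 in gelsolin lines and from 369 to 546 in vector lines. FLT1, KDR, FLT4 and NRP2 were dim, with log2 fold changes between −0.07 and 0.03. GPC1, a heparan sulfate proteoglycan, did not pass the threshold (0.18, adjusted p = 0.299). The other tested ligands of the VEGF and PDGF family did not pass it either, and PDGFC differed by 0.46 (adjusted p = 0.332). None of the 3 tested processing enzymes of VEGFC passed it, nor did the 1 other tested angiopoietin-like gene.

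The hypoxia list holds 27 targets of the hypoxia-inducible factors other than the ligands. Of 22 tested, 4 were lower, 3 were higher and 15 did not pass the threshold, and their median log2 fold change was −0.11, against 0.02 for all genes tested. SLC2A1, the glucose transporter GLUT1, was lower at 226 ± 47.4 in gelsolin lines and 1194 ± 256 in vector lines (SD, n = 4 and 2 lines), which is −2.41 on the log2 scale (adjusted p = 3.51e-05 from limma). NDRG1, ANKRD37 and INSIG2 were lower, with log2 fold changes of −0.95, −0.63 and −0.49. The glycolytic enzymes ALDOC and PGK1 and the mitophagy receptor BNIP3 were higher, by 1.16, 0.38 and 0.59, and PGK1 lost the call in 14 of 22 alternatives. The targets thus moved in both directions. Without V4 the counts were 1 lower and 1 higher, and without V5 they were 2 lower and 0 higher. Of 7 tested genes of the factor itself and its regulators 1 passed, VHL, whose product marks HIF alpha subunits for degradation and which was lower (−0.55, adjusted p = 0.00702 from limma). HIF1A differed by −0.20 (adjusted p = 0.422).

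Of 10 tested PPAR receptors and targets, 3 were lower, 1 was higher and 6 did not pass, with a median of −0.08. PPARG, the nuclear receptor, was lower at 1321 ± 395 in gelsolin lines and 2808 ± 289 in vector lines (SD, n = 4 and 2 lines), which is −1.13 on the log2 scale (adjusted p = 0.0106 from limma). The lipid droplet protein PLIN2 and the mitochondrial acyl-CoA dehydrogenase ACADVL were lower, with log2 fold changes of −1.03 and −0.48, and RXRA, the partner receptor of the PPARs, was higher by 0.35, a call lost in 13 of 22 alternatives. Without V4, and likewise without V5, 1 gene was lower and 0 were higher. Of 9 tested transcription factors known to act on ANGPT2, 1 passed, KLF2, which was higher (0.54, adjusted p = 0.0479 from limma) and lost the call in 9 of 22 alternatives, and the median was −0.03.

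Secreted inhibitors of vessel growth held 7 tested genes, of which 2 were lower and 1 was higher. WARS1, a tryptophanyl-tRNA synthetase with antiangiogenic fragments, was lower (−2.15 on the log2 scale, adjusted p = 2.03e-06 from limma). SEMA3A, a semaphorin that binds the NRP1 receptor, was lower as well (−2.89, adjusted p = 0.0193), and VASH1, which encodes vasohibin, was higher by 0.50 (adjusted p = 0.0239) and lost the call in 8 of 22 alternatives. Of 14 other tested vessel growth factors, 5 were lower, 2 were higher and 7 did not pass, with a median of −0.64. HBEGF, a ligand of the EGF receptor, was lower at 98.8 ± 28.4 in gelsolin lines and 363 ± 23.4 in vector lines (SD, n = 4 and 2 lines), which is −1.91 on the log2 scale (adjusted p = 0.000767 from limma). JAG1, a Notch ligand, and TYMP, thymidine phosphorylase, were lower, with log2 fold changes of −0.87 and −0.60, and MDK, the growth factor midkine, was higher by 0.94. Without V4, and likewise without V5, 1 of these factors was lower and 1 was higher.

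**Figure D4:**
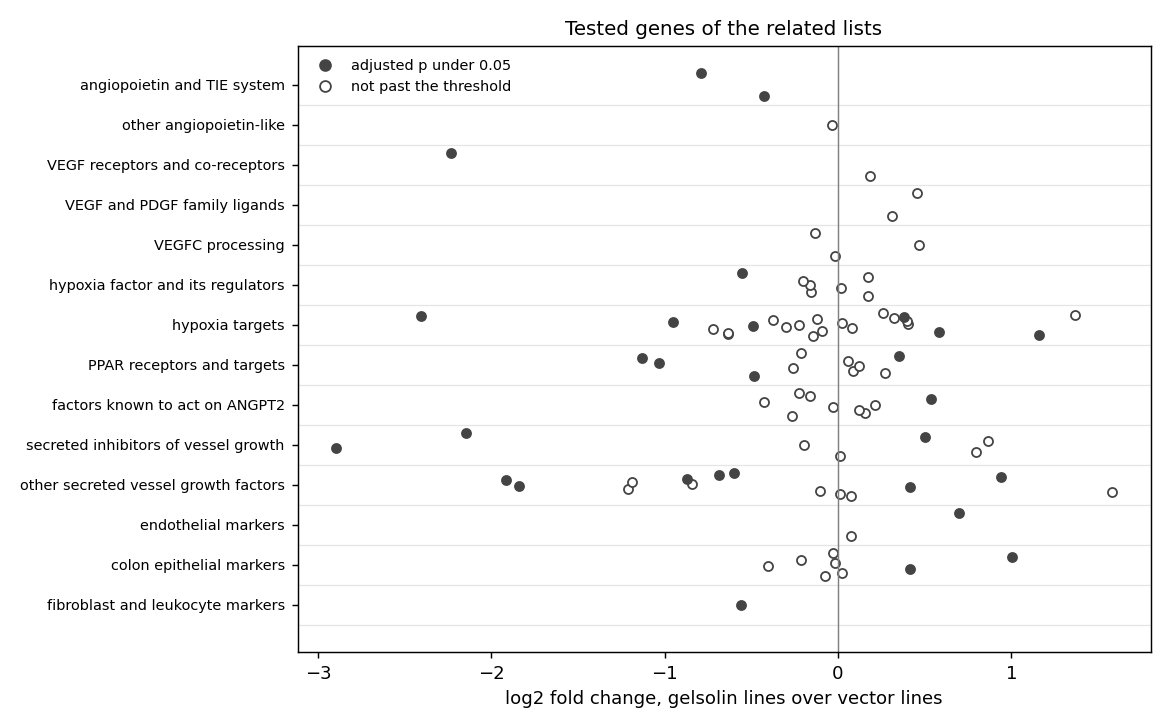
Log2 fold change (horizontal axis, gelsolin over vector lines) of each tested gene of the related lists, 1 row of points per list, with filled points where the adjusted p from limma was under 0.05. The hypoxia targets lie on both sides of 0, and the vessel growth factors have a median of −0.64.

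The genes whose log2 signals ran most like those of each tested member over the 11 arrays were taken by Pearson's r, as a description. Arrays of a line share that line, and the difference between the groups alone gives genes that moved a high r. For ANGPT2 the highest was 0.985, for a probe with no gene symbol, and 0.982 for SIPA1L2, which had a log2 fold change of −2.44.

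For VEGFA the closest genes over the arrays were ZFAND3 (0.978), ABITRAM (0.977), the zinc transporter SLC39A14, the pseudokinase TRIB3 (both 0.98) and TNFRSF10B, a TRAIL receptor (0.973). Within groups the transcription factor CEBPB led with 0.972, and with 0.922 when the second harvest of C1 was left out. CEBPB was 7987 in that harvest, 4345 to 5720.0 on the other gelsolin arrays and 7002 to 8599 on the vector arrays, so the array that was high for VEGFA was high for CEBPB. TRIB3 showed the same placing, with 4283 in the second harvest of C1, 1354 to 2351 on the other gelsolin arrays and 5463 to 6054 on the vector arrays.

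For ANGPTL4 the closest gene was ATF3, a stress-induced transcription factor, both over the arrays (0.954) and within groups (0.924). ATF3 gave 2066 and 1275 in C1, 512 to 697 on the arrays of C2, C3 and C8, and 1134, 1514 and 2441 on the vector arrays. C1 overlapped the vector arrays for ATF3 as it did for ANGPTL4. For VEGFB the highest r was 0.889, for MAP7. Between members, ANGPT2 and VEGFA had an r of 0.80 over the 11 arrays and −0.07 within groups, and ANGPTL4 and VEGFA had 0.68 and 0.36. The values within groups depended on the second harvest of C1. Without it they were −0.59 for ANGPT2 and VEGFA and 0.19 for ANGPTL4 and VEGFA.

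**Figure D5:**
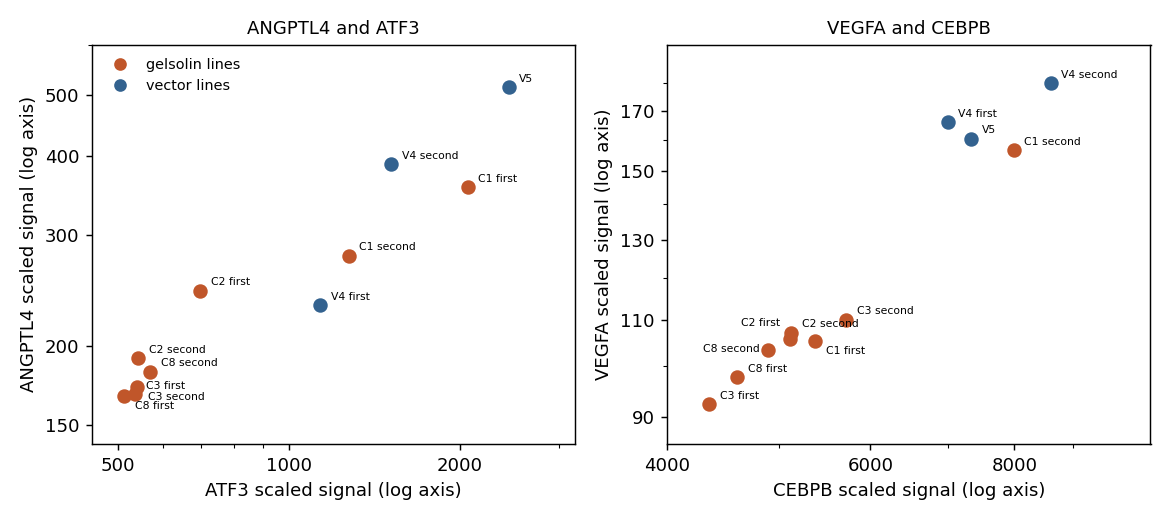
Scaled signals (both axes log) of ANGPTL4 against ATF3 and of VEGFA against CEBPB on the 11 arrays, each point 1 array labelled by line and harvest. C1 lies among the vector arrays for ANGPTL4 and ATF3, and its second harvest lies beside them for VEGFA and CEBPB.

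The nearest tested genes in the RefSeq gene order were set beside ANGPT2 and ANGPTL4. Genes that were not tested were passed over, and the distance to a neighbour was not weighed. Of all genes tested, 22.2% passed the threshold in either direction. Around ANGPT2, ARHGEF10 and CLDN23 were higher (0.48, adjusted p = 0.0218, and 0.65, adjusted p = 0.00932, both from limma) and MFHAS1 was lower (−0.36, adjusted p = 0.0322). AGPAT5, MYOM2 and KBTBD11 did not pass the threshold, with log2 fold changes of −0.42, −0.10 and −0.35. Several of these calls changed with the setting. ARHGEF10 lost its call in 10 of 22 alternatives, CLDN23 in 3 of 22 and MFHAS1 in 8 of 21, and AGPAT5 passed in 7 of 22. Around ANGPTL4, NDUFA7, a subunit of mitochondrial complex I, was higher by 1.05 (adjusted p = 0.000549 from limma), and RPS28, KANK3, RAB11B, MARCHF2 and HNRNPM did not pass the threshold.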

How the data were processed

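The authors hybridised RNA to Illumina HumanRef-8 beadchips and deposited average bead intensity values without normalization. The 11 arrays of transfected lines were analysed, and wild-type HCT116, which the methods also name, was not analysed here. They also deposited a ratio table, for which each array had been divided by its 50th percentile and each probe by a baseline; these ratios differ from intensity over array median by 1 constant per probe, to within 3.46e-07 on the log2 scale. How BeadStudio corrected background is not stated in these sources. The deposited table carries no detection p. The number of arrays limits the precision.

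Intensities were divided by the array median, multiplied by the common median and put on the log2 scale, and harvests of a line were averaged. A probe was kept when 2 or more of the 6 lines exceeded the common median, and a gene was represented by its probe with the highest mean. Gene symbols came from the platform annotation, and 2207 probes had none. Gelsolin lines (4) were set against vector lines (2) with limma 3.58.1 (R 4.3.3, eBayes with trend and robust, 2-sided), with Benjamini-Hochberg adjustment over 10267 genes and a threshold of 0.05. The spread among gelsolin lines was tested over arrays by an F-test with a beadchip term, and harvests by paired differences of 5 lines. An exact test over lines could not go below 0.0667 one-sided. For gelsolin against vector lines the p-values measure the spread between the lines of a group. For the F-test they measure the spread between harvests of a line, so they do not cover a new derivation of lines. For harvests they measure the spread of the paired differences between lines. Each of these spreads may in part be technical. The tests were checked on simulated data. Figures were drawn with matplotlib 3.10.9.

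The members and the 14 gene lists were chosen with earlier results of these data known. Named genes are all members, GSN, up to 4 genes of each list by adjusted p with a few further list members chosen after their values were seen, the genes most like each tested member, and the 3 nearest tested genes on either side of ANGPT2 and ANGPTL4. Alternatives were other normalizations, offsets, filters, spread models, beadchip and replicate blocks, and leaving out each line or array.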

Additional observations from a re-analysis of the deposited data

Results flagged for a closer look

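VEGFA in the second harvest of C1 stood apart from the other gelsolin arrays. Its scaled signal of 157 left a gap to the next of the 8 gelsolin arrays that was 0.668 of their whole log2 range. Of 14 groups of members' arrays and lines checked in this way 1 was marked, and chance marks a group with a probability of about 0.05. The fold change without this array is given with the VEGFA values.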

How the results depend on the processing

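In the contrast of gelsolin and vector lines, VEGFA kept its call and its direction under 19 of 21 alternatives and ANGPTL4 stayed short of the threshold under 19 of 22. VEGFA gave no value under the stricter filter, which its probe did not pass. In the comparisons of lines and of harvests VEGFA, ANGPTL4 and VEGFB stayed short of the threshold under all alternatives. VEGFA (−0.62) lost the call with no spread shared between genes, and within beadchip 2 (−0.53). The size of its log2 fold change varied, from −0.45 with 50 added to the signals to −0.97 with normexp without an offset. ANGPTL4 passed with plain eBayes (−0.89, adjusted p = 0.0404 from limma), within beadchip 2 (−1.14) and without C1. ANGPT2, given with no test, was −2.06 with 50 added to the signals, −3.03 within beadchip 1, −2.41 within beadchip 2 and −3.85 with offset-free normexp, which was added after seeing the data. Both normexp settings include quantile normalization. ANGPT1 was 0.21 with quantile normalization, 0.18 with normexp and an offset, and 0.98 with offset-free normexp. VEGFC was −0.11 both with 50 added and with normexp and an offset, and −0.51 with offset-free normexp. VEGFB, at 0.0047, changed sign without passing the threshold, to −0.014 with quantile normalization, −0.013 with normexp and an offset, −0.022 with offset-free normexp, −0.015 over arrays with line as a random block, −0.018 when the beadchip was a block and −0.074 in beadchip 1 alone. MYOM2, at −0.10, was 0.012 within beadchip 2. The harvest difference of ANGPT2 was 0.082, and that of ANGPTL4 −0.14, in gelsolin lines only. The causes were not tested.

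Leaving out 1 line at a time gave log2 fold changes of −2.74 to −2.57 for ANGPT2, −1.28 to −0.50 for ANGPTL4, −0.70 to −0.56 for VEGFA, −0.068 to 0.077 for VEGFB, 0.07 to 0.13 for ANGPT1, −0.30 to −0.12 for VEGFC and −0.11 to −0.03 for PGF. VEGFB was −0.0080 without C1, −0.0084 without C2 and −0.068 without V5. Harvest differences were −0.29 to 0.082 for ANGPT2 (0.016 without C3, 0.082 without V4), −0.14 to 0.14 for ANGPTL4 (−0.14 without V4), 0.12 to 0.26 for VEGFA and −0.02 to −0.01 for VEGFB. Ranges over gelsolin lines were also taken with 1 array left out at a time. They were 0.23 to 0.68 for ANGPT2, whose signal was low in these lines, and 0.64 to 1.14 for ANGPTL4. For VEGFA they were 0.13 to 0.58 and for VEGFB 0.07 to 0.11.

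The number of genes called between gelsolin and vector lines, 2280, was 483 with no shared spread, 204 within beadchip 1, 1497 within beadchip 2, and 636 (without V5) to 2515 with 1 line left out. The number called over gelsolin lines, 59, was 146 with no filter, 37 with plain eBayes, 26 without the beadchip term and 14 to 149 with 1 array left out. The number called between harvests, 0, was 10 with no filter, 1 with every probe on its own and 0 to 47 with 1 line left out (47 without C8). With the replicate number as a block the log2 fold changes were −2.62 for ANGPT2, −0.79 for ANGPTL4, −0.67 for VEGFA (adjusted p = 0.00168 from limma) and −0.013 for VEGFB, the count of genes called was 1990, and the block changed no call of a member. The harvest differences of the lines correlated between −0.28 and 0.59 over 10 pairs of lines, so the numbers were not taken to pair the lines. In deviations from the group mean, each of the 8 gelsolin arrays was compared with the gelsolin arrays of other lines only. Each correlated best with an array of its own number. This is a hint from the data, and the numbers run with the beadchips except for V5.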

Other observations

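Among the 90 tested genes of the related lists, 6 passed the F-test among gelsolin lines (limma, threshold 0.05), against 0.575% of all genes tested, and they were picked out after their values were seen. The count over all genes, 59, was 14 to 149 with 1 array left out. CXCL8, the chemokine interleukin-8, had line means of 851 in C1, 135 in C2, 182 in C3 and 301 in C8, with 480 in V4 and 888 in V5, so C1 lay with the vector lines (adjusted p = 0.0154 over gelsolin lines). BHLHE40, a hypoxia-induced repressor, was 2294 in C1 and 1131 to 1511 in the other gelsolin lines, with 2172 in V4 and 2467 in V5. CCN2, a matrix-associated growth factor, was 348 in C2 but 1063 to 1082 in C1, C3 and C8, with 238 in V4 and 307 in V5. EFNB2, an ephrin, was highest in C1 (991) and lowest in C8 (352) of the gelsolin lines, all below V4 and V5 (2177 and 2195). SEMA3A was 63.1 to 211 in gelsolin lines, highest in C1, with 676 in V4 and 979 in V5. SLC2A3, the glucose transporter GLUT3, was 148 in C2 to 405 in C8, with 107 in V4 and 96.2 in V5.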
